A study of Mus musculus with 7 samples.

Results

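The amino acid and integrated stress response genes are a set of 35 genes for amino acid synthesis, amino acid transport, tRNA charging and stress signalling that the transcription factor ATF4 is known to drive. They were taken by symbol from a gene count table of mouse fetal liver, and all 35 were found among its 35976 symbols. The study deleted Brd9, which encodes a bromodomain subunit of the non-canonical BAF remodeller of chromatin, in blood cells. RNA came from lineage-negative cells, the progenitor fraction left after magnetic removal of cells with mature blood markers, of C57BL/6 embryos at E14.5. The 4 knockout libraries (Vav1-iCre Brd9fl/fl) carried a recombinase driven by the promoter of the pan-haematopoietic gene Vav1, and the 3 control libraries (Brd9fl/fl) did not. Embryos of both groups were CD45.2(+) and had loxP-flanked Brd9 alleles on both chromosomes. Since only the knockouts carried the recombinase, effects of its presence and of Brd9 deletion cannot be told apart. Whether a library came from 1 embryo or a pool is not given in the sources used here, so p-values measure the spread between libraries, which may be partly technical.

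The integrated stress response begins with kinases that phosphorylate the initiation factor eIF2: GCN2 when amino acids run short, HRI when haem runs short, PERK in endoplasmic reticulum stress and PKR on double-stranded RNA. Most translation then slows, while the Atf4 transcript is translated better. ATF4 enters the nucleus with C/EBP partners and switches on genes that restore amino acid supply, and genes that later shut the response off. Mice without Atf4 are anaemic as fetuses, and HRI and ATF4 act in erythroid precursors when haem is scarce. Because ATF4 is controlled mainly at translation, its transcript does not measure its protein.

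ATF4 binds with C/EBP proteins to a composite site whose core can be written TGATGNAA, and sites of this kind mark several of the 35 genes. RefSeq promoters of GRCm38.p6, from 250 bases before to 50 bases after the start site, were at hand for 30 of the 35 genes. They were searched for TGATGNAA on both strands, the other strand reading TTNCATCA, and 10 of the 30 genes held it. Among all 27025 genes with a promoter entry, 4.51% held it (3.97% of the 32851 promoters). ATF4 targets were partly named for such sites, so this share is no finding about these cells. The 9 sequences below lie before a start site listed by RefSeq, and are shown because they hold the searched letters. For Vldlr, Slc7a11 and Aars that start site is an internal one, inside the span RefSeq gives for the whole gene. They are written on the gene's strand, with the match in capitals.
Atf3, chr1:191183420-191183459, minus strand: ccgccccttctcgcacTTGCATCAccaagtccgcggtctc
Nupr1, chr7:126625557-126625596, minus strand: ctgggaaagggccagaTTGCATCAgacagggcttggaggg
Chac1, chr2:119351033-119351072, plus strand: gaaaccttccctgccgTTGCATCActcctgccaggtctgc
Vldlr, chr19:27216804-27216843, plus strand: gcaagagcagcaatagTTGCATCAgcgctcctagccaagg
Asns, chr6:7693210-7693248, minus strand: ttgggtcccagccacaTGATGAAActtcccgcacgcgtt
Pycr1, chr11:120643828-120643867, minus strand: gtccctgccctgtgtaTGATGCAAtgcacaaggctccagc
Slc7a11, chr3:50443637-50443695, minus strand: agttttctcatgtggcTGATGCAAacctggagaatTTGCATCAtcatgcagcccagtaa
Aars, chr8:111033714-111033753, plus strand: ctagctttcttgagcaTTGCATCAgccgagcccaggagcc
Gars, chr6:55037955-55037994, plus strand: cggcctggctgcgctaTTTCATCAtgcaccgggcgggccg
Trib3, the remaining gene, held its match just after the start site, and Aars had a further match there. Slc7a11 held 2 matches in opposite orientations. The 10 genes with a match had a median log2 fold change, knockout over control, of 0.38, and 8 of the 10 were higher in the knockouts. The 20 genes with an entry and no match had a median of 0.21, and 18 of the 20 were higher. A match describes the letters of the promoter and does not show that ATF4 was bound.

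Brd9 itself had 8.57, 11.9, 13.2 and 12.2 CPM (counts per 1000000 of the scaled library total) in the knockouts, against 30.5, 32.2 and 36.5 CPM in the controls. It fell to 34.7% of control (log2 fold change -1.53, SE 0.15; edgeR quasi-likelihood test, Benjamini-Hochberg adjusted p = 0.0037), and a two-sided exact permutation test of the group labels gave p = 0.0286, the smallest such a test can give with 4 and 3 libraries. Every library thus lay on the side its label gives. Library totals ran from 18748885 to 21861876 counts in the knockouts, with knockout replicate 1 the lowest, and from 21831430 to 23571878 in the controls. Progenitor markers such as Kit and Myb were present in every library, with Kit at 160 to 212 CPM in the knockouts and 267 to 313 CPM in the controls.

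No member of the set passed the edgeR test over all genes. At an adjusted p under 0.05, 0 of 35 members were called, where 82 of 14679 genes tested were (0.559%; 0.0136% higher and 0.545% lower). DESeq2 called 1 member, Vldlr, where it called 393 of 14679 genes, and limma-voom called 0 members and 74 genes. All 35 members passed the filter on low counts. On balance the set sat slightly higher in the knockouts: 31 of 35 members had a positive log2 fold change and 4 a negative one, where 52.4% and 47.6% of all genes tested did, and the median was 0.25, against 0.01 over all genes tested. At an unadjusted p under 0.05, 11 members were higher and 0 were lower (31.4% of members against 3.95% of all genes higher, and 6.9% of all genes lower). In 7 members every knockout library lay above every control, which was so for 4.38% of all genes, and no member lay below every control (6.81% of all genes). The 35 genes share the same libraries and were listed with earlier results of these data known, so these counts describe the set and do not test it. In bulk RNA, fewer cells of a type and less RNA per cell cannot be told apart.

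**Figure D1:**
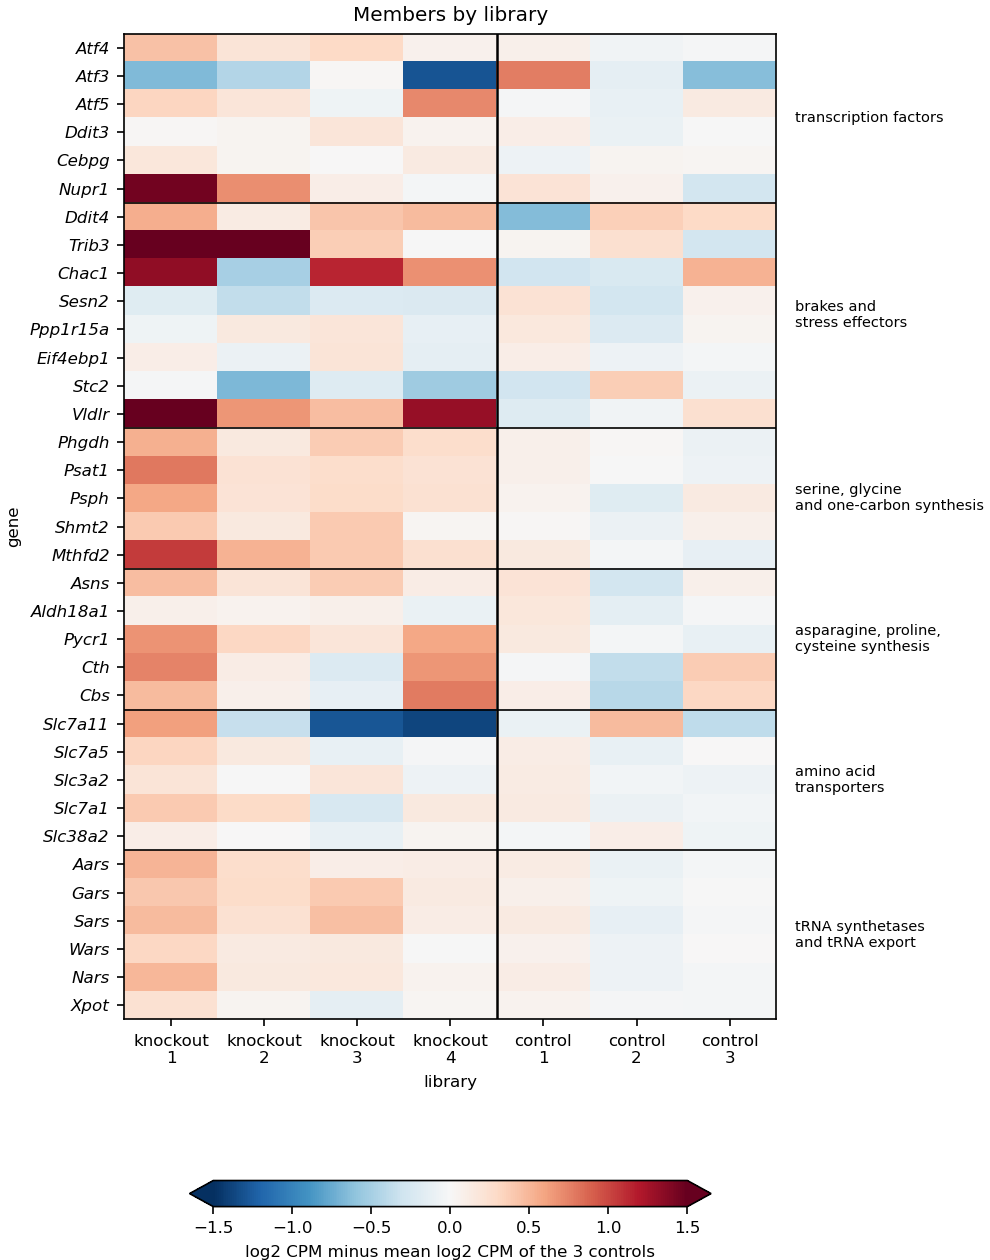
The 35 members (down, grouped by role) in the 4 knockout and 3 control libraries (across); colour gives log2 CPM minus the mean log2 CPM of the 3 controls, and values beyond the ends of the scale take the end colour. Knockout replicate 1 is the reddest column, with a median deviation of 0.44 over the members, and the serine and one-carbon block is red in most knockout cells.

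The knockout libraries spread widely around this small difference. The median deviation of the 35 members from the control mean was 0.44 on the log2 scale in knockout replicate 1, 0.15 in replicate 2, 0.18 in replicate 3 and 0.061 in replicate 4, against 0.075, -0.073 and -0.018 in the controls. The median of knockout replicate 4 was below that of control replicate 1. Knockout replicate 1 held the highest level of all 7 libraries for 25 of the 35 members. Knockout replicates 2, 3 and 4 had 18, 20 and 14 members above every control and 4, 5 and 4 below every control. The shares over all genes for these counts of single libraries are not given here.

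Levels within the set spanned a wide range. Per kilobase of exon, Phgdh was the most abundant, at 144 CPM per kilobase in the knockouts and 114 in the controls. Shmt2 followed at 132 CPM per kilobase in the knockouts and 111 in the controls. Asns stood at 121 in the knockouts and 99.5 in the controls, and Atf4 at 113 in the knockouts and 95.0 in the controls. The 10 highest members were the same genes in both groups. Lengths merge all annotated exons of a gene, whether or not these cells use them, so the order depends partly on the annotation. At the other end, Slc7a11 stood at 0.0705 CPM per kilobase in the knockouts and 0.0954 in the controls, and Stc2, Chac1, Nupr1, Vldlr and Atf3 were all at or under 1.04 in both groups. The 7 highest levels belonged to amino acid synthesis genes, tRNA synthetases and Atf4, and the transporter Slc7a5 was among the 10 highest.

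Serine, glycine and folate one-carbon synthesis had the highest median log2 fold change of the 6 roles, 0.34. These enzymes turn a glycolytic intermediate into serine (Phgdh, Psat1, Psph) and move serine's carbon onto folate in the mitochondrion (Shmt2, Mthfd2). All 5 were higher at an unadjusted p under 0.05, where 3.95% of all genes tested were. In 4 of them the groups did not overlap, which was so for 4.38% of all genes. None passed over all genes (smallest adjusted p = 0.248, that of Phgdh). Without knockout replicate 1, Psph and Shmt2 had an unadjusted edgeR p of 0.0636 and 0.132. Mthfd2, the mitochondrial methylene-tetrahydrofolate dehydrogenase, had 123, 84.9, 78.1 and 70.1 CPM in the knockouts, against 65.6, 58.4 and 54.5 CPM in the controls. Its mean was 89.1 ± 23.6 CPM in the knockouts and 59.5 ± 5.6 CPM in the controls (SD, n = 4 and 3), a 1.5-fold difference (log2 fold change 0.58, SE 0.18, adjusted p = 0.254). All knockouts lay above all controls, with replicate 1 far above the rest and replicate 4 close to the highest control.

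Phgdh, the first and committed enzyme of serine synthesis (chromosome 3, 98313171 to 98339969, GRCm38), had 407, 313, 367 and 340 CPM in the knockouts, against 297, 285 and 266 CPM in the controls. The groups did not overlap, and the log2 fold change was 0.34 (SE 0.10, adjusted p = 0.248). Psph, the phosphatase of the last step, had 61.4, 47.3, 49.6 and 48.0 CPM in the knockouts, against 42.4, 36.2 and 45.01 CPM in the controls (log2 fold change 0.32, SE 0.12, adjusted p = 0.364). Here too the groups did not overlap, by a margin of little more than 2 CPM. By the annotation, 10.4% of Psph exon bases lie opposite exons of Cct6a, and whether the counting used strand is not given in the sources used here. Psat1, the transaminase between them, averaged 337 ± 72 CPM in the knockouts and 257 ± 13 CPM in the controls. Shmt2, the mitochondrial serine hydroxymethyltransferase, averaged 411 ± 52 CPM in the knockouts and 346 ± 20 CPM in the controls, and its knockout replicate 4 lay within the control range.

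**Figure D2:**
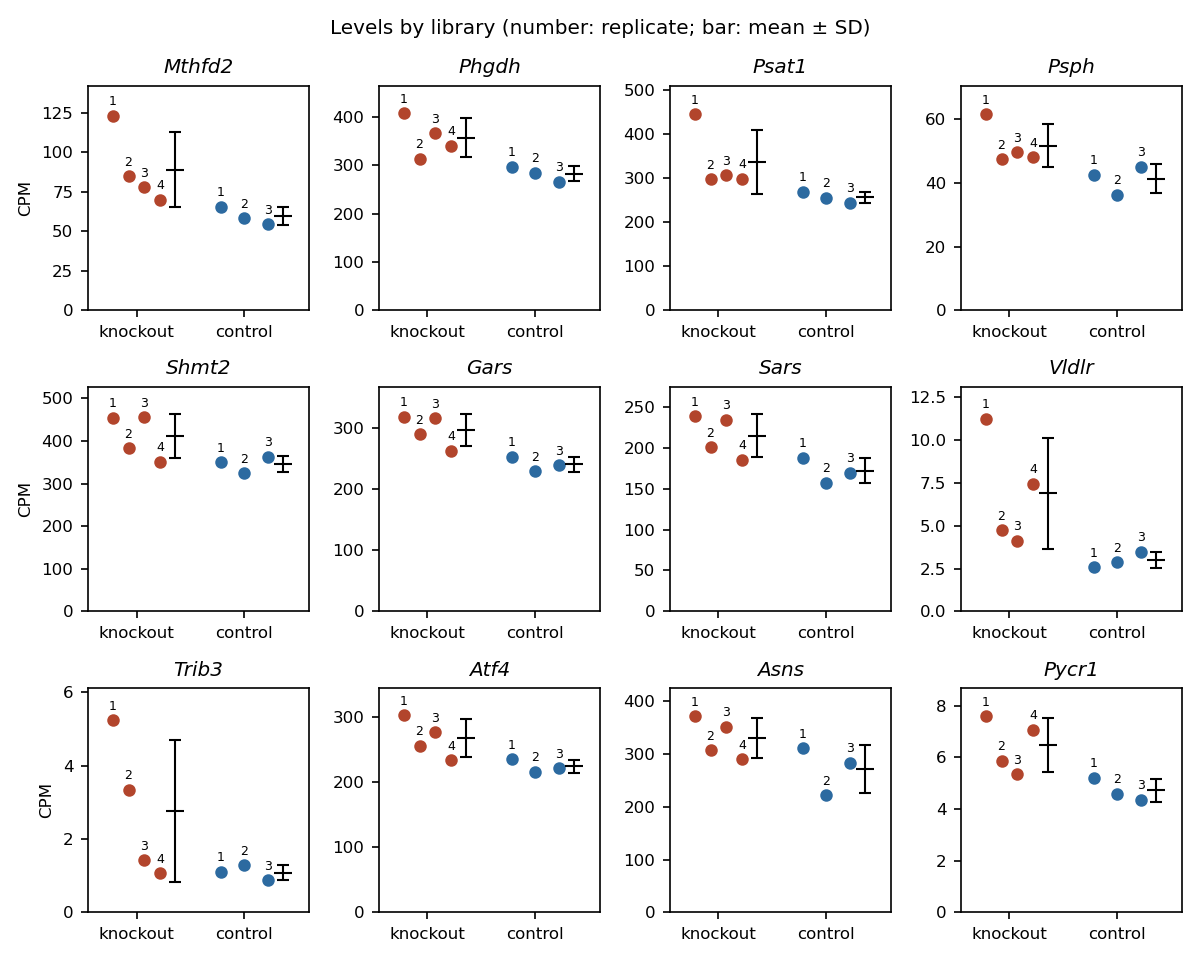
Levels of 12 members in CPM, knockout libraries (red, left) and control libraries (blue, right); each point is a library numbered by its replicate, and the bar gives mean ± SD (n = 4 and 3). In Mthfd2, Phgdh, Psat1, Psph, Gars, Vldlr and Pycr1 every knockout lies above every control, while Trib3, Atf4, Asns, Shmt2 and Sars overlap.

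The synthesis genes for asparagine, proline and cysteine were also all on the higher side, 5 of 5, but only Pycr1 reached an unadjusted p under 0.05. Pycr1, which makes proline, had 7.59, 5.87, 5.35 and 7.07 CPM in the knockouts, against 5.21, 4.595 and 4.37 CPM in the controls (log2 fold change 0.45, SE 0.18, adjusted p = 0.414). The groups did not overlap, though the lowest knockout and the highest control were nearly level. Asns, the asparagine synthetase, had 372, 307, 352 and 290 CPM in the knockouts, against 311, 222 and 283 CPM in the controls (log2 fold change 0.28, SE 0.13, adjusted p = 0.500). The groups overlapped, and control replicate 2 was the lowest of the 7 values. Aldh18a1, which makes the precursor of proline, averaged 221 ± 12 CPM in the knockouts and 218 ± 24 CPM in the controls, a log2 fold change of 0.024.

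Cth and Cbs, the enzymes that make cysteine from homocysteine, followed the hepatocyte transcripts in the libraries. Cth had 27.1, 17.4, 14.0 and 25.5 CPM in the knockouts, against 16.04, 12.5 and 21.2 CPM in the controls (log2 fold change 0.34, SE 0.26, adjusted p = 0.678). Cbs averaged 20.1 ± 5.7 CPM in the knockouts and 16.1 ± 4.0 CPM in the controls. The 16 hepatocyte markers, led by Alb and Afp, summed to 24380, 15920, 14490 and 25970 CPM in the knockouts, against 16020, 11540 and 20180 CPM in the controls. All 16 had a positive log2 fold change, none was at 0 in any group, and none passed at an unadjusted p under 0.05. Knockout replicates 1 and 4 and control replicate 3 were the 3 highest libraries for the markers and for both enzymes. Without knockout replicates 1 and 4 the log2 fold changes of Cth and Cbs were -0.073 and -0.048. Without those libraries the log2 fold changes of Mthfd2 and Phgdh were 0.46 and 0.27, with adjusted p = 0.296 and 0.583. The part of hepatocyte RNA in the levels of the set was not tested.

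**Figure D3:**
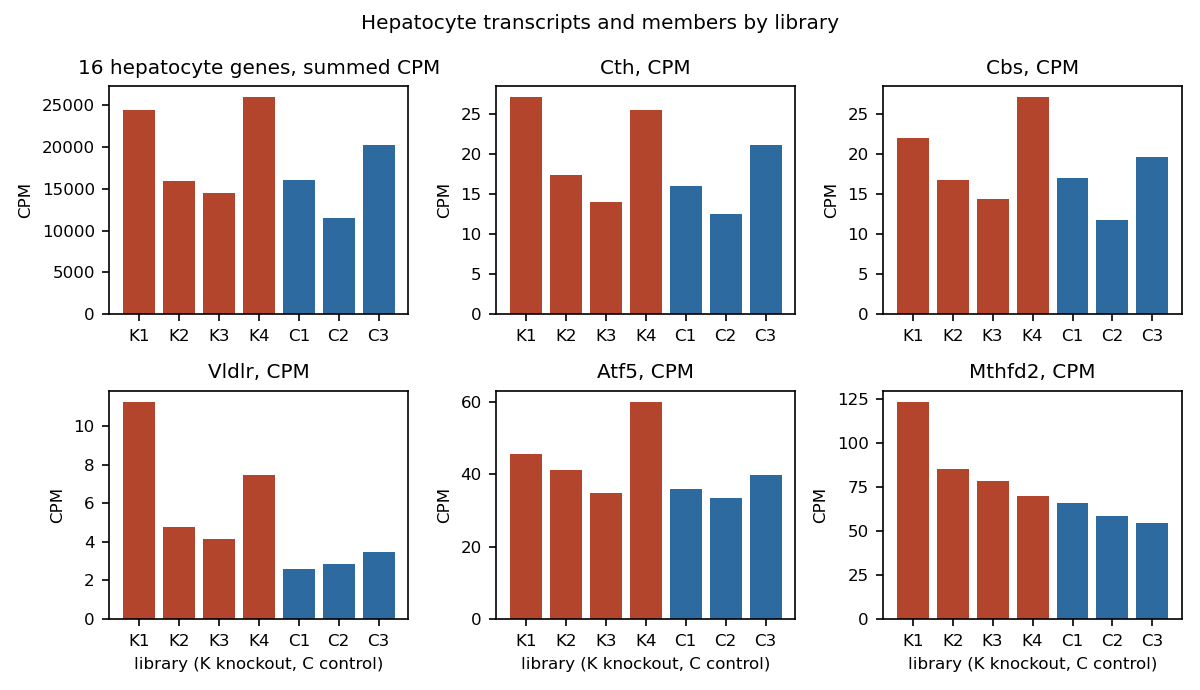
Summed CPM of 16 hepatocyte markers and CPM of 5 members in each library (K, knockout, red; C, control, blue; the number is the replicate). The bars of Cth and Cbs rise and fall with those of the hepatocyte markers, highest in K1, K4 and C3, while Mthfd2 is highest in K1, at 123 CPM, and lower in K4 than in K2 and K3.

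Genes for tRNA charging had a median log2 fold change of 0.24. All 5 synthetases and Xpot, the exporter of tRNA from the nucleus, had positive log2 fold changes, from 0.045 for Xpot to 0.32 for Sars. At an unadjusted p under 0.05, 2 of 6 were higher, where 3.95% of all genes tested were. Gars, the glycyl-tRNA synthetase, had 318, 289, 316 and 263 CPM in the knockouts, against 252, 229 and 238 CPM in the controls (log2 fold change 0.31, SE 0.09, adjusted p = 0.236). All 4 knockouts lay above the controls. Sars, the seryl-tRNA synthetase, had 239, 201, 234 and 185 CPM in the knockouts, against 188, 157 and 169 CPM in the controls (log2 fold change 0.32, SE 0.11, adjusted p = 0.317). Knockout replicate 4 lay just inside the control range. Aars, the alanyl-tRNA synthetase, had 298, 252, 224 and 227 CPM in the knockouts, against 228, 196 and 206 CPM in the controls (log2 fold change 0.25, SE 0.11, adjusted p = 0.465). Of its annotated exon bases 14.3% overlap exons of other genes on the same strand and 0.83% on the opposite strand. The overlapping genes are Exosc6 and Gm24103. Wars and Nars had log2 fold changes of 0.15 and 0.22.

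The amino acid transporters were the role closest to no difference, with a median log2 fold change of 0.076 and 0 of 5 at an unadjusted p under 0.05. Slc7a1, the carrier of arginine and lysine, had 215, 200, 139 and 181 CPM in the knockouts, against 180, 154 and 159 CPM in the controls (log2 fold change 0.16, SE 0.14, adjusted p = 0.717). Knockout replicate 3 was below every control and the other knockouts were above them. The pair that forms the leucine carrier, Slc7a5 and Slc3a2, had log2 fold changes of 0.090 and 0.076. Slc3a2, the heavy chain, had 151, 131, 149 and 124 CPM in the knockouts, against 143, 128 and 124 CPM in the controls (SE 0.09, adjusted p = 0.798), so the groups covered much the same range. Slc38a2, a glutamine carrier that amino acid shortage is known to induce, averaged 176 ± 11 CPM in the knockouts and 175 ± 10 CPM in the controls.

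Slc7a11, the cystine importer, was the transporter lowest in abundance, and it leaned lower. It had 37, 22, 10 and 9 reads in the knockouts, against 26, 44 and 21 reads in the controls, which is 2.02, 0.993, 0.474 and 0.439 CPM in the knockouts against 1.198, 1.82 and 0.966 CPM in the controls. The log2 fold change was -0.46 (SE 0.53, adjusted p = 0.785), with knockout replicate 1 above every control and replicates 3 and 4 below them. Without knockout replicate 1 it was -1.06 (SE 0.43, unadjusted p = 0.0384, adjusted p = 0.579). It carries 2 copies of the searched core, printed above, and was among the 2 genes with a match that had negative log2 fold changes, the other being Atf3.

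Among the transcription factors, Atf4 was modestly higher. It had 302, 255, 276 and 233 CPM in the knockouts, against 235, 216 and 221 CPM in the controls (log2 fold change 0.25, SE 0.10, unadjusted p = 0.0288, adjusted p = 0.393). Knockout replicate 4 lay just under control replicate 1 and the other knockouts lay above all controls. Atf5, a related factor itself induced in the response, had 45.5, 41.3, 34.7 and 60.0 CPM in the knockouts, against 35.9, 33.5 and 39.9 CPM in the controls (log2 fold change 0.32, SE 0.17, adjusted p = 0.562), and knockout replicate 3 lay inside the control range. It too was highest in knockout replicates 4 and 1, the libraries with the most hepatocyte RNA, and its log2 fold change was 0.15 without replicate 4 and 0.063 without both. Nupr1, a stress-induced chromatin protein, had 40, 28, 17 and 15 reads in the knockouts, against 19, 19 and 13 in the controls, or 2.19, 1.26, 0.805 and 0.731 CPM in the knockouts against 0.876, 0.787 and 0.598 CPM in the controls. Its log2 fold change was 0.71 (SE 0.43, adjusted p = 0.613), carried by knockout replicates 1 and 2, and 0.30 without replicate 1.

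Ddit3, Cebpg and Atf3 had small or negative log2 fold changes. Ddit3, which encodes CHOP, averaged 21.8 ± 1.1 CPM in the knockouts and 20.8 ± 1.5 CPM in the controls, a log2 fold change of 0.072. Cebpg, a C/EBP partner of ATF4, had a log2 fold change of 0.090. Atf3, which is also an immediate early gene, averaged 1.40 ± 0.54 CPM in the knockouts and 2.23 ± 1.18 CPM in the controls. The log2 fold change was -0.66 (SE 0.42, adjusted p = 0.619). Its highest value, 3.55 CPM, was in control replicate 1, and without that library the log2 fold change was -0.16. Of 20 other immediate early genes, 16 were lower in the knockouts and 4 of them at an unadjusted p under 0.05, with Fos at 24.7 ± 5.1 CPM in the knockouts and 44.3 ± 8.7 CPM in the controls (log2 fold change -0.84, adjusted p = 0.0908). The part of this shift in the level of Atf3 was not tested.

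The largest fold changes of the set were those of 2 low-level genes among its brakes and effectors. Vldlr, the very low density lipoprotein receptor (chromosome 19, 27216480 to 27254231), had 11.3, 4.74, 4.12 and 7.46 CPM in the knockouts, against 2.58, 2.86 and 3.49 CPM in the controls, or 87 to 206 reads in the knockouts against 56 to 76 in the controls. The groups did not overlap. The log2 fold change was 1.21 (SE 0.35, adjusted p = 0.223), and the DESeq2 test run here on the same counts called it (log2 fold change 1.21, adjusted p = 0.0272). The authors' deposited table lists it as its only member of the set at an adjusted p under 0.05 (log2 fold change 1.21, adjusted p = 0.0268). Its highest libraries, knockout replicates 1 and 4, were those with the most hepatocyte RNA. Control replicate 3, the next in hepatocyte RNA, was the highest control for Vldlr, at 3.49 CPM, but below every knockout. Without knockout replicates 1 and 4 the log2 fold change was 0.58 (unadjusted p = 0.0421, adjusted p = 0.575), from knockouts at 4.74 and 4.12 CPM. The part of hepatocyte RNA in the level of Vldlr was not tested.

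Trib3, a pseudokinase that ATF4 induces and that in turn restrains it, had 96, 74, 30 and 22 reads in the knockouts, against 24, 31 and 19 in the controls. In CPM this was 5.24, 3.34, 1.42 and 1.07 in the knockouts, against 1.11, 1.28 and 0.874 in the controls. Knockout replicates 1 and 2 stood well above the controls, while replicates 3 and 4 were at or near the control level. The log2 fold change was 1.33 (SE 0.53, unadjusted p = 0.0329, adjusted p = 0.410), and without knockout replicate 1 it was 0.83 (SE 0.45, unadjusted p = 0.102, adjusted p = 0.735).

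Sesn2, which signals leucine shortage to mTORC1, leaned the other way. It had 18.7, 16.4, 18.3 and 18.2 CPM in the knockouts, against 24.8, 17.5 and 22.1 CPM in the controls (log2 fold change -0.26, SE 0.14, adjusted p = 0.555), and control replicate 2 lay inside the knockout range. Of the other effectors, Ppp1r15a, the GADD34 subunit that removes phosphate from eIF2, averaged 92.9 ± 9.5 CPM in the knockouts and 90.8 ± 11.4 CPM in the controls. Eif4ebp1, a repressor of cap-dependent translation, averaged 52.1 ± 5.7 CPM in the knockouts and 51.4 ± 3.3 CPM in the controls. Ddit4, an inhibitor of mTORC1, had a log2 fold change of 0.34, which was 0.075 without control replicate 1. Stc2, a secreted glycoprotein, had a log2 fold change of -0.38. Chac1, which degrades glutathione, had 5 to 19 reads in the knockouts and 6 to 12 in the controls. The log2 fold change was 0.89 (SE 0.54, adjusted p = 0.613).

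**Figure D4:**
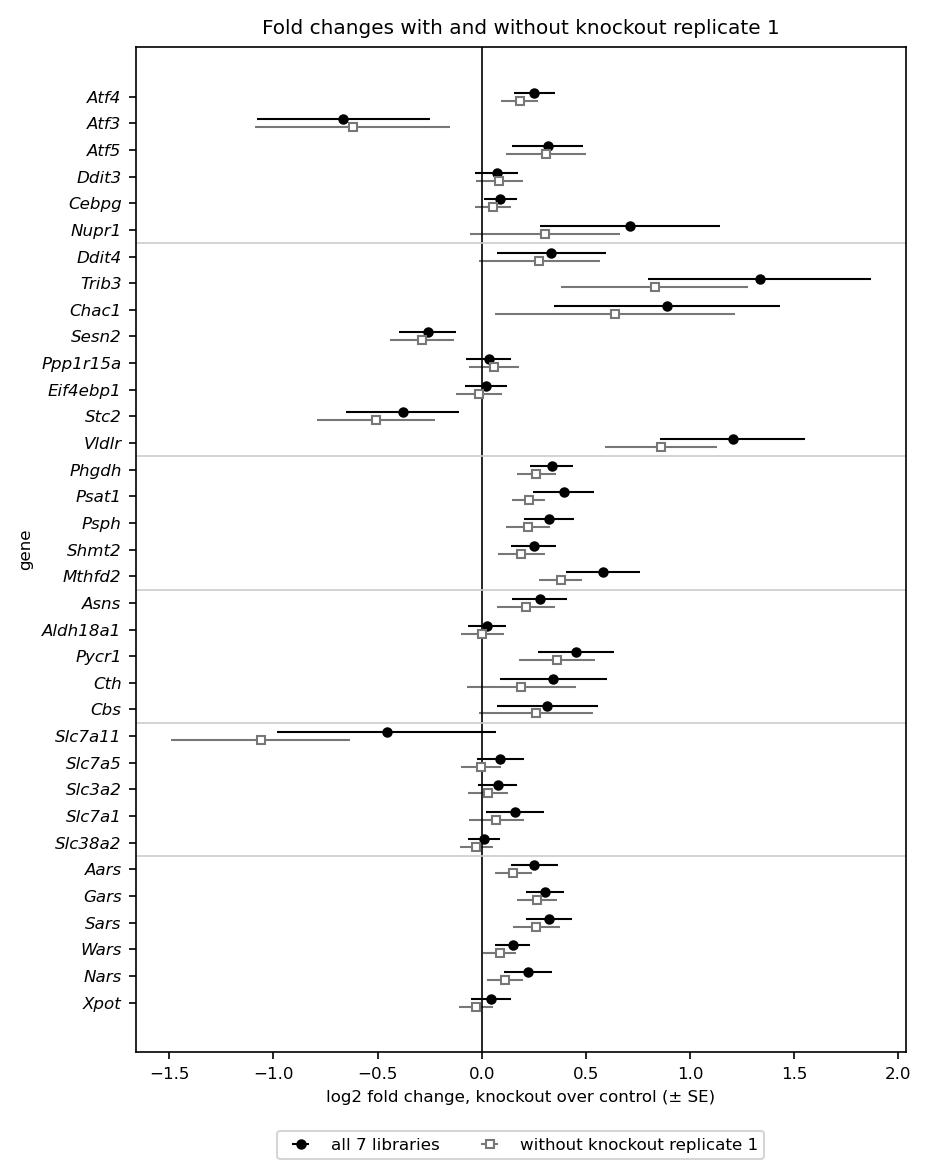
Log2 fold change, knockout over control, with its standard error for each member, from all 7 libraries (filled circles) and without knockout replicate 1 (open squares); grey lines part the roles. Leaving that library out moves most members toward 0, with Mthfd2 at 0.38 in place of 0.58 and Slc7a11 further from 0, at -1.06.

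The set's displacement was smaller without knockout replicate 1 and without control replicate 2. Without knockout replicate 1, the median log2 fold change of the 35 members was 0.18, against 0.007 over all genes in the same fit, and 27 of 35 members were higher. At an unadjusted p under 0.05, 6 members were higher and 1, Slc7a11, was lower, where 2.69% of all genes were higher and 5.51% lower in that fit. The 6 were Mthfd2, Vldlr, Psat1, Phgdh, Gars and Sars, with log2 fold changes of 0.38, 0.86, 0.23, 0.26, 0.27 and 0.26. Their adjusted p-values ran from 0.275 to 0.608, and none of the 35 was called. Mthfd2 had the smallest unadjusted p of the set in that fit, 0.00576. Without control replicate 2, the lowest control in 19 members, the median was 0.17. In that fit 4 members were higher at an unadjusted p under 0.05 and 1, Sesn2, was lower. Of all genes, 3.35% were higher and 4.65% lower there. Without control replicate 3, 6 members were higher and 0 lower, where 2.36% of all genes were higher and 5.38% lower.

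Outside the set, 150 genes were listed from the rest of the pathway, mTORC1 regulators and immediate early genes. Of these, edgeR called 0 and limma-voom 0. DESeq2 called 2, Jdp2 and the immediate early gene Fos, both lower (log2 fold changes -0.71 and -0.84, adjusted p = 0.011 and 0.00154 in DESeq2). Over all 14679 genes tested, edgeR called 82, limma-voom 74 and DESeq2 393. Counts at an unadjusted p under 0.05 in edgeR are given for each list, where 3.95% of all genes tested were higher and 6.9% lower. Of 19 tested genes for eIF2 kinases, eIF2 and eIF2B, 13 were higher with a median of 0.063, and 3 were higher at an unadjusted p under 0.05. These were Eif2b4 and Eif2b3, subunits of the eIF2 exchange factor, and Eif2s2, the beta subunit of eIF2, with log2 fold changes of 0.23, 0.25 and 0.28 (adjusted p = 0.329, 0.418 and 0.418). The kinases were not among them: Eif2ak1, the HRI gene, had a log2 fold change of 0.097 and Eif2ak4, the GCN2 gene, of -0.12, both named after their values were seen.

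The remaining cytosolic tRNA synthetases were higher in 13 of 15, with a median of 0.16, while the 17 mitochondrial ones had a median of 0.032 and 11 higher. In the cytosolic list 3 genes were higher at an unadjusted p under 0.05. Yars averaged 155 ± 14 CPM in the knockouts and 130 ± 8 CPM in the controls, Cars 103 ± 7 CPM in the knockouts and 85.4 ± 8.3 CPM in the controls, and Mars 197 ± 17 CPM in the knockouts and 168 ± 12 CPM in the controls. Their adjusted p-values ran from 0.314 to 0.408, and in all 3 the groups did not overlap. In the mitochondrial list 1 was, Sars2, with a log2 fold change of 0.24. Whether the cytosolic and mitochondrial enzymes differ was not tested.

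Other genes described as ATF4 targets went in both directions. Of 24 tested, 19 were higher and 5 lower, with a median of 0.11, and 7 were higher and 3 lower at an unadjusted p under 0.05. Slc6a9, the glycine transporter, averaged 38.6 ± 5.2 CPM in the knockouts and 26.4 ± 6.0 CPM in the controls (log2 fold change 0.55, adjusted p = 0.251). Jdp2, a bZIP repressor, averaged 7.16 ± 0.94 CPM in the knockouts and 11.7 ± 2.1 CPM in the controls (log2 fold change -0.71, adjusted p = 0.129), and Klhl24 averaged 24.2 ± 5.4 CPM in the knockouts and 37.1 ± 7.0 CPM in the controls (log2 fold change -0.62, adjusted p = 0.255). In Jdp2 and Klhl24 every knockout lay below every control. Of the list, 7 entries are also in the cytosolic synthetase list, and Yars, Cars and Mars are counted as higher in both.

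Folate and glycine enzymes outside the set had a median log2 fold change of 0.096 over 16 genes, with 12 higher. Mtr, the methionine synthase, was the only one at an unadjusted p under 0.05, and it was lower, at 72.5 ± 6.9 CPM in the knockouts and 86.9 ± 3.0 CPM in the controls (log2 fold change -0.26, adjusted p = 0.313). Gcsh and Mat2a had log2 fold changes of 0.18 and 0.12. The difference between these enzymes and the serine genes was not tested.

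Endoplasmic reticulum genes of the unfolded protein response leaned lower, in 18 of 20, with a median of -0.11. Syvn1, a ubiquitin ligase of that organelle, averaged 55.0 ± 1.7 CPM in the knockouts and 64.8 ± 0.7 CPM in the controls (log2 fold change -0.24, adjusted p = 0.220) and was the only one of them at an unadjusted p under 0.05. Xbp1, a transcription factor of that response, and Calr, a lumenal chaperone, had log2 fold changes of -0.16 and -0.19. Mitochondrial chaperones and proteases were higher in 8 of 9, with a median of 0.094 and 1, Clpp, higher at an unadjusted p under 0.05 (log2 fold change 0.27, adjusted p = 0.361). Hspe1 and Hspa9 had log2 fold changes of 0.28 and 0.12. Of 15 mTORC1 regulators, with a median of 0.015, 1 was higher and 1 lower at an unadjusted p under 0.05. The higher was Gatsl3, the arginine sensor now called Castor1. It averaged 2.04 ± 0.38 CPM in the knockouts and 1.04 ± 0.19 CPM in the controls (log2 fold change 0.97, adjusted p = 0.228). The lower was Deptor, with a log2 fold change of -0.33, and Rraga had a log2 fold change of 0.18. Fosl2 and Zfp36, of the immediate early list, had log2 fold changes of -0.71 and -0.51.

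**Figure D5:**
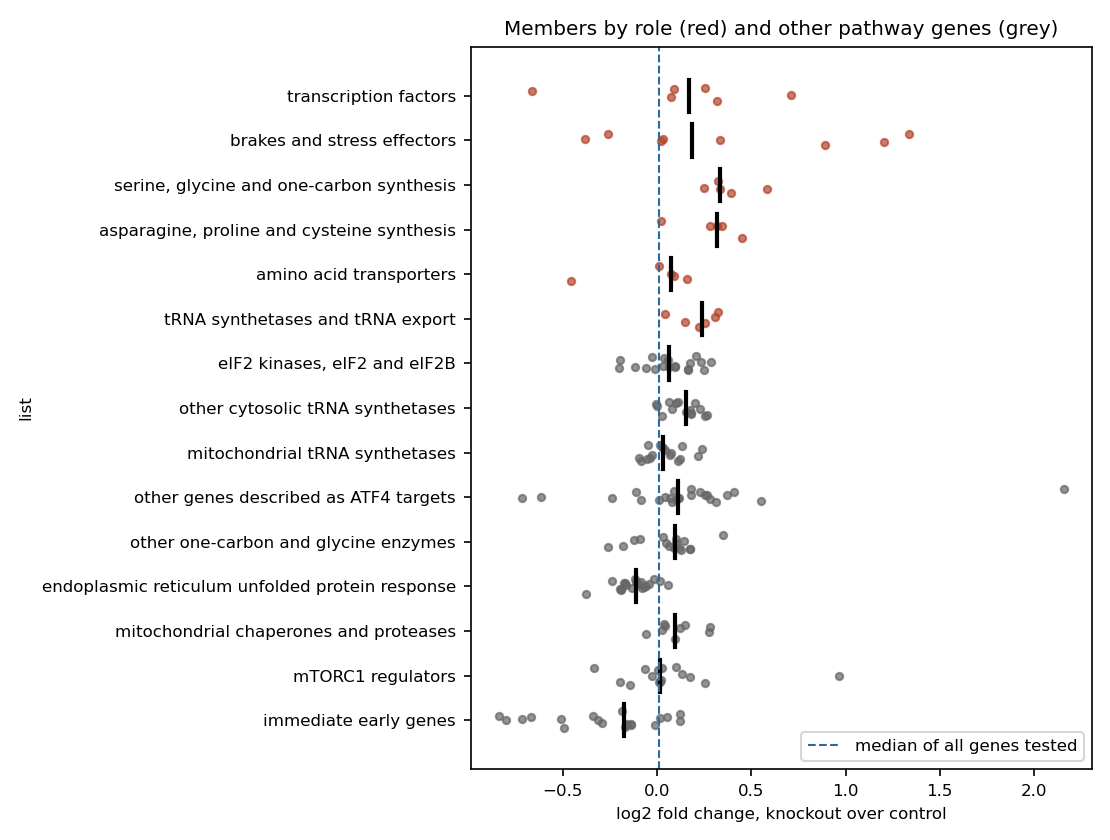
Log2 fold change, knockout over control, of every tested gene in each list: members by role (red) and other pathway or related genes (grey). The black bar is the list median and the dashed line the median of all genes tested, 0.01. The serine and one-carbon genes all lie right of the dashed line, and 18 of 20 endoplasmic reticulum genes lie below 0; the point furthest right is Slc7a3, with a log2 fold change of 2.16 and a mean of 1.47 CPM in the knockouts and 0.313 CPM in the controls, named after its values were seen.

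Markers of several other cell types also differed in level between the groups. The 10 neutrophil markers, led by Mpo, summed to 1584 to 3581 CPM in the knockouts and 4764 to 8430 CPM in the controls, all 10 lower and 6 of them called. The 10 macrophage markers summed to 81.8 to 161 CPM in the knockouts and 224 to 305 CPM in the controls, all 10 lower. The 10 erythroid markers summed to 3319 to 4322 CPM in the knockouts and 2177 to 3454 CPM in the controls, 8 of them higher. The 10 progenitor markers were lower in 8, the 8 endothelial ones in 7, and the 8 stromal ones were higher in 7. No marker of the macrophage, erythroid, progenitor, endothelial or stromal lists was called. Over all genes tested 52.4% were higher and 47.6% lower, and 0.545% were called lower. Dlk1, counted as stromal, was highest in knockout replicates 1 and 4 and control replicate 3 (586, 651 and 444 CPM). These libraries were also the highest in the hepatocyte markers. No marker of these lists was at 0 in all libraries. The part of these shifts in the levels of the 35 members was not tested.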

How the data were processed

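Per the labels' protocols, RNA was extracted with RNeasy columns and sequenced from TruSeq Stranded mRNA libraries. The table of raw counts deposited by the authors has a row for each gene symbol and a column for each of the 7 libraries. The submitters' processing notes name HISAT2, featureCounts, DESeq2 and mm10; the sources used here give no versions, annotation or strand setting. A second table deposited by the authors gives their comparison as log2 fold changes with adjusted p-values.

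Of 35976 symbols, the 14679 kept by filterByExpr were tested in R 4.3.3 with edgeR 4.0.16 (TMM scaling, quasi-likelihood F test, no covariate, 4 knockouts against 3 controls). A call is a Benjamini-Hochberg adjusted p under 0.05 over all genes. Standard errors are the log2 fold change divided by the square root of F. Levels are CPM of the TMM-scaled totals, mean ± SD; log2 CPM used a prior count of 2. Exon lengths are unions of GENCODE M21 exons, and coordinates, promoters and symbols come from RefSeq (GRCm38.p6, the assembly mm10 names), 1-based. The test was checked on simulated counts of the same depths.

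Alternatives were DESeq2 size factors or total counts, no filter or a mean of at least 1 CPM, DESeq2 1.42.0, limma-voom 3.58.1, a block on replicate number, 1 surrogate variable (sva 3.50.0), each library left out in turn, and knockout replicates 1 and 4 left out. The members, lists and tests were chosen with earlier results of these data known. Genes given in every library are Atf4 and the 3 of each role with the smallest unadjusted p; of pathway lists up to 3 such genes, and of marker lists the most abundant. Other genes named were chosen after their values were seen. Libraries of a group differed by more than sampling noise (chi-square per degree of freedom at least 9).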

Additional observations from a re-analysis of the deposited data

Results flagged for a closer look

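In 3 members, 1 knockout library lay far from the other 3 by Dixon's criterion, which chance meets in about 1 of 20 groups; the 35 members were each tested in the knockouts, and controls, with 3 libraries, were not. Psat1 had 445 CPM in knockout replicate 1, against 298, 307 and 299 CPM in knockout replicates 2 to 4 and 244 to 270 CPM in the controls, and the gap was 0.935 of the group's range. Psph had 61.4 CPM in knockout replicate 1, against 47.3 to 49.6 CPM in the other knockouts and 36.2 to 45.01 CPM in the controls, and the gap was 0.839 of the range. Aldh18a1 had 203 CPM in knockout replicate 4, against 225 to 228 CPM in the other knockouts and 195 to 243 CPM in the controls, and the gap was 0.884 of the range.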

How the results depend on the processing

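The number of genes called among all tested was 82. It was 228 with no filter, 393 with DESeq2, 141 with 1 surrogate variable, 7 without knockout replicates 1 and 4, and 20 to 120 without single libraries (51 without knockout replicate 1, 21 without 2, 37 without 4, 49 without control replicate 2, 20 without 3). No member was called except Vldlr with DESeq2 and, with the block, Mthfd2, so these gave 1 called member each. Members higher at an unadjusted p under 0.05 numbered 4 to 14 without single libraries, against 11 with all, and lower ones 0 to 1. In those fits 2.36% to 4.92% of all genes were higher and 4.65% to 7.67% lower. The members' median log2 fold change ran from 0.15 to 0.28 over 16 alternatives, and 27 of 35 members kept their sign in every alternative that tested them; Brd9 kept its call in all. The other 8, none of them called, changed sign in at least 1. Slc38a2 was at -0.004 with total counts, -0.002 with the block, -0.013 with the surrogate variable and -0.051 without knockout replicates 1 and 4; Xpot was at -0.008 with the surrogate variable and -0.046 without those replicates, where Cth and Cbs were at -0.073 and -0.048. Without single libraries the log2 fold change ran from -0.026 to 0.058 for Slc38a2, -0.028 to 0.102 for Xpot, -0.062 to 0.12 for Ppp1r15a, -0.04 to 0.077 for Eif4ebp1, -0.049 to 0.115 for Aldh18a1 and -0.002 to 0.154 for Slc7a5. The cause was not tested.

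The block on replicate number raised the calls among all genes to 121. With it Mthfd2 had a log2 fold change of 0.66 (edgeR adjusted p = 0.0432, against 0.254 with no block and up to 0.612 over the alternatives). Only a knockout carries the number 4, so with the block knockout replicate 4 adds nothing to the group difference. That library had the lowest Mthfd2 level of the knockouts, 70.1 CPM. Without it and with no block the log2 fold change was 0.68 (edgeR adjusted p = 0.19). The labels do not say that equal numbers share an embryo or day, the deviations of same-numbered libraries correlated at 0.17, -0.022 and -0.005, and 2 of 6 libraries correlated best with their own number. Depth limits the low members most: Chac1 had 5 to 19 reads in the knockouts and 6 to 12 in the controls, and could not be tested at a mean of at least 1 CPM.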
